A study of Mus musculus with 6 samples.

Results

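The tumour necrosis factor (TNF) superfamily, its ligands and their receptors, was described in ras-expressing mouse keratinocytes cultured with and without a blocker of the interleukin-1 receptor. Members were taken by name from the non-control probes of the array: every gene whose array name begins with Tnfsf or Tnfrsf, and Tnf, Fas, Fasl, Lta, Ltb, Ltbr, Cd40, Cd40lg, Cd27, Cd70, Ngfr, Eda, Edar and Eda2r. This gave 47 of the 27573 genes on the array, read by 67 probes. One of the 47, listed in the array design under an old Tnfsf name, is now Psmg2, a chaperone of proteasome assembly and no ligand or receptor, which leaves 46 genes of the family. Of the 47, 34 gave signal well above background on every array of PBS, of Anakinra or of both and were tested, and 13 did not and are described apart.

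The cells were primary keratinocytes from newborn epidermis of wild-type mice. They were given the v-ras-Ha oncogene by adenovirus at 10 particles per cell, and the isolation also held hair follicle buds. Both groups carry the oncogene and differ in treatment: 3 cultures received Anakinra, a recombinant antagonist of the interleukin-1 receptor, at 5 ug/ml from 5 hours after transduction, and 3 received PBS. RNA was prepared after 3 more days of culture, with the antagonist replaced after 2 days. Each culture was read on 1 one-colour Agilent array, and the comparison asks how the family's transcripts differ when signalling through the interleukin-1 receptor is blocked in these cells.

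TNF family ligands are mostly membrane proteins that act as trimers, and some are shed from the cell surface. Their receptors fall into those with an intracellular death domain, which can recruit the caspase machinery, those that bind TRAF adaptors and feed NF-kB and MAP kinase signalling, and decoys that bind a ligand without passing on its signal. In skin, TNF is made by keratinocytes as well as by immune cells and is a driver of inflammation, Fas is a death receptor of keratinocytes, and the ectodysplasin ligand Eda and its receptor Edar are needed for hair follicles and other appendages. Interleukin-1 and TNF signalling both lead to NF-kB.

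Levels below are log2 processed signals from which each array's own 75th percentile was subtracted, so that 0 is the level of that percentile, and changes are Anakinra minus PBS. A change passed the test where the adjusted p of a limma model, with Benjamini-Hochberg adjustment over all 16494 genes tested, was under 0.05. Probes differ in how brightly they report, so levels of different genes are not ranked against each other.

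Before the results, 1 array has to be described. On the array Anakinra 2, 86.5% of all probes were well above background, against 55.6% to 71.0% on the other 5. Arrays within PBS correlated at 0.995 to 0.997 and arrays within Anakinra at 0.957 to 0.983, and no spot was saturated. Keratinocyte markers were tested for 10 of 10 genes, with a mean log2 level of 5.03 to 5.20 across the PBS arrays and 5.59 to 5.68 across the Anakinra arrays. Krt1, at 2.35, and Krt10, at 2.40, passed as higher, while Krt5, Krt14, Trp63 and Sfn had changes of -0.14 to -0.04 that did not pass. Cdh1, Perp, Dsp and Itga6 went the other way, at 0.20 to 0.24, and did not pass either. The groups of Cdh1, Perp and Dsp did not overlap, and the median change over the keratinocyte list was 0.20. The T and B cell markers Ptprc, Cd3d, Cd3e, Cd3g, Cd79a and Ms4a1 were not well above background on all arrays of either group, and all 6 were well above it on Anakinra 2. Dim members of the TNF family were also high on Anakinra 2, as described below. The mean log2 level of 6 fibroblast markers, of which Col3a1 and Lum passed as higher, was -1.73 to -1.60 in PBS and -1.27 to -0.996 in Anakinra; that of 5 melanocyte markers was 2.36 to 2.56 and 2.57 to 2.73, with 0 passing by limma; and that of 6 tested hair follicle markers was 1.45 to 1.58 and 1.67 to 1.82, with Krt79 higher. The mean of each of these lists was higher on every Anakinra array, but not each gene: Dcn of the fibroblast list was at -0.38, with groups that did not overlap, and did not pass (limma adjusted p = 0.0703), and Lhx2, Krt17 and Msx2 of the hair follicle list had changes of -0.15 to -0.03, with a median over that list of 0.05. The part of these lists in the results on the TNF family was not tested.

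Of the 34 tested members, 2 were lower in Anakinra past the threshold, Tnf and Fas, 0 were higher, and 32 did not pass. That is 5.88% of the members, where 1.77% of all tested genes passed in either direction, 0.8% lower and 0.97% higher. At an unadjusted limma p under 0.05, 5 members were lower and 3 higher, 23.5% of the members against 16.1% of all genes. The 3 PBS values and the 3 Anakinra values did not overlap for 9 members, or 26.5%, which is close to the 26.2% of all genes for which that held. The median log2 change was -0.05 over the members and 0.01 over all tested genes, and the median of its absolute value was 0.25 over the members and 0.15 over all genes. The results turn on Tnf and Fas.

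The promoter sequences of 4 members are shown first, since they show what lies before the start sites of the called genes Tnf and Fas, of Ltb, the lymphotoxin gene beside Tnf, and of Tnfrsf9, the tested member that held both motifs searched. Each is the 250 bases upstream of the start in RefSeq, build GRCm38.p6, written 5′ to 3′ along the gene. Capitals mark matches to the AP-1 motif TGANTCA or to the NF-kB (kappa B) consensus, searched on both strands.
Tnf, chr17:35202008-35202257, minus strand: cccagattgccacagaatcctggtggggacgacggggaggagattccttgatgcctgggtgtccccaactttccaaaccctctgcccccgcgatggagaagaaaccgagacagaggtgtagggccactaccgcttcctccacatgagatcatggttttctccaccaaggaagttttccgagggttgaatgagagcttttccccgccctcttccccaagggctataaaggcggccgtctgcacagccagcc
Fas, chr19:34290409-34290658, plus strand: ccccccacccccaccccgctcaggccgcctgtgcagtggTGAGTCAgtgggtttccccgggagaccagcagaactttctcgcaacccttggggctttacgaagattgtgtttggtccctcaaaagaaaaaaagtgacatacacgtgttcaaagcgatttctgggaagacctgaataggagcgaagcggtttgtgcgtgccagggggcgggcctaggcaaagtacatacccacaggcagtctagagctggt
Ltb, chr17:35194257-35194506, plus strand: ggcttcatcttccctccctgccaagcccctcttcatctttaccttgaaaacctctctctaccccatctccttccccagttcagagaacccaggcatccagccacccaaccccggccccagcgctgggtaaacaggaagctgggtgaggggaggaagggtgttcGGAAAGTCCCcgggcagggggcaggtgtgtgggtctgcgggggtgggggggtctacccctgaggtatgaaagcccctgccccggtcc
Tnfrsf9, chr4:150927749-150927998, plus strand: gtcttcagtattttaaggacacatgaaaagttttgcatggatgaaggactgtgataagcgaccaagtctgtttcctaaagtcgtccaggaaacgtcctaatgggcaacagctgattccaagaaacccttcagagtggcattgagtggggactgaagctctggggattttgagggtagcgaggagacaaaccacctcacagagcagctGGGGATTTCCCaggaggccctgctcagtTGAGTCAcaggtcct
The upstream window of Tnf held no match to either motif. Fas held the AP-1 match TGAGTCA at -211 to -205 from its start. Ltb held a kappa B match at -87 to -78. It reads GGAAAGTCCC on the strand printed here, and the consensus is matched by the opposite strand. Tnfrsf9 held the overlapping kappa B matches GGGGATTTCC and GGGATTTCCC between -43 and -33, and TGAGTCA at -15 to -9; RefSeq lists a further start for this gene, whose window held neither. The AP-1 matches read as the motif on both strands and were counted once.

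RefSeq windows of 250 bases before to 50 bases after the start were at hand for 36 of the 47 members; those without one were Cd40, Cd40lg, Cd70, Psmg2, Tnfrsf10b, Tnfrsf11b, Tnfrsf22, Tnfrsf26, Tnfsf12, Tnfsf4 and Tnfsf9. Over these 300 bases the kappa B consensus was found in 2 of 26 tested members (7.69%), Ltb and Tnfrsf9, against 6.39% of tested genes with a window and 5.14% of all 27025 genes in the table. AP-1 was found in 3 of 26 tested members (11.5%), Fas, Tnfrsf9 and Tnfsf13b, against 6.88% of tested genes and 8.97% of all. Among the 10 members with a window that were not tested, Tnfrsf8 held both motifs and Tnfsf14 held AP-1. These are letter matches, not measured binding sites, and a window without a match says only that the letters are not in it.

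Tnf, the founding ligand of the family and a main inflammatory cytokine, was 6.20-fold lower in Anakinra. Its processed signal was 1533, 1893 and 2069 on PBS arrays 1 to 3, and 336, 295 and 344 on Anakinra arrays 1 to 3. The highest Anakinra signal was far below the lowest PBS signal, and neither group had an array apart from its others. As log2 levels, Tnf stood at 0.83, 0.94 and 1.04 in PBS and at -1.58, -1.88 and -1.63 in Anakinra. The log2 change was -2.63 ± 0.11 (SE, n = 3 per group; adjusted p = 0.00225 by limma), with a 95% interval of -2.91 to -2.35. The array carries 10 spots of the Tnf probe, and after outlier spots were removed the SD between spots on an array was 0.024 to 0.098, below the SD between arrays of 0.11 in PBS and 0.16 in Anakinra. The probe lies at chr17:34807902-34807961 on the minus strand in build mm8, as given by the array design, which does not say which exon it reads.

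The Tnf difference did not rest on Anakinra 2 or on 1 slide. Without Anakinra 2 it was -2.54 (limma adjusted p = 0.00387). The 6 arrays lay on 2 slides, each holding both groups. Slide 1 held PBS 2, PBS 3 and Anakinra 1, and slide 2 held PBS 1, Anakinra 2 and Anakinra 3. A change within a slide, here and below, thus rests on 1 array in 1 of its groups. For Tnf the change was -2.57 within slide 1, -2.58 within slide 2 and -2.58 with slide as a block (limma adjusted p = 0.0216). Without PBS 2 the change was -2.63 and the limma adjusted p 0.0549, which misses the threshold. In bulk RNA, fewer cells that make Tnf and less Tnf RNA per cell cannot be told apart. Of 8 myeloid, Langerhans and mast cell markers, 5 were tested and 0 passed by limma; their mean log2 level was -2.39 to -2.12 in PBS and -2.99 to -1.84 in Anakinra, ranges that overlap. Among the 5, dim Cd207 had the widest spread in Anakinra, at -7.38, -2.11 and -3.83. Csf1r, the receptor of the macrophage growth factor, was at -0.33 ± 0.11 with groups that did not overlap (limma adjusted p = 0.228), and Fcer1g, an Fc receptor chain, was at -0.40 ± 0.15 (limma adjusted p = 0.277), the same direction as Tnf. The other tested markers had overlapping groups: Cd68 was at -0.003 ± 0.18, Tyrobp at -0.11 ± 0.28 and Cd207 at 0.15 ± 1.37. The part of these cell types in the Tnf result was not tested.

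**Figure D1:**
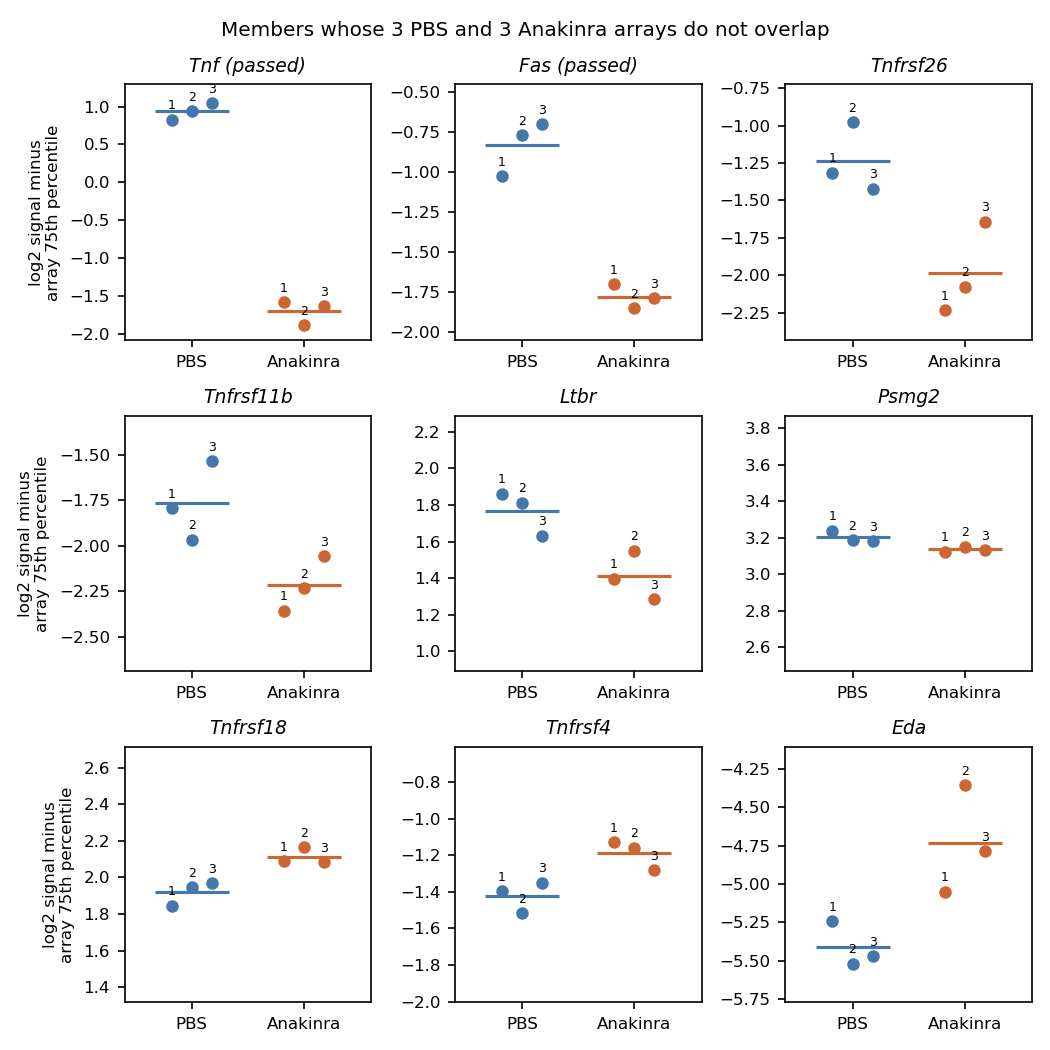
Log2 signal minus the array's 75th percentile for the 9 members whose 3 PBS points (blue) and 3 Anakinra points (orange) do not overlap; numbers mark replicates, lines are group means, and the axis range differs between panels. Tnf fell from between 0.83 and 1.04 to between -1.88 and -1.58, Fas from between -1.02 and -0.70 to between -1.85 and -1.70, and the other 7 did not pass the test.

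The genes whose pattern over the 6 arrays was most like that of Tnf were Ifitm3 (Pearson r = 0.999), an interferon-inducible membrane protein, Csf1 (0.999), the macrophage growth factor, Cxcl5 (0.998), a chemokine for neutrophils, Rab32 (0.998), a small GTPase, and Cbr2 (0.998), a carbonyl reductase. They were ranked among 16403 genes with a value on every array. With groups so far apart, any gene with a tight and large difference comes close to such a value, and the ranking is given as a description. Their log2 changes were -1.06 for Ifitm3, -1.66 for Csf1, -5.06 for Cxcl5, -0.77 for Rab32 and -1.59 for Cbr2. Among the members themselves, Fas came nearest to Tnf at r = 0.986, and Tnfrsf18 was the most opposite at -0.899.

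Lymphotoxin beta, Ltb, and lymphotoxin alpha, Lta, lie beside Tnf on chromosome 17, with the 3 probes spanning 7.24 kb in build mm8 (34804204 to 34811441). Neither passed. In PBS cultures Ltb read -3.72, -3.71 and -3.53, against -5.28, -3.31 and -4.39 under Anakinra, so that 2 Anakinra arrays were below all PBS arrays and Anakinra 2 was above them. The change was -0.68 ± 0.50 (SE; 3 arrays a group; limma adjusted p = 0.579). Without Anakinra 2 it was -1.18 (limma adjusted p = 0.129), and with quantile scaling between arrays -0.96, which passed (limma adjusted p = 0.0147). Lta stood at -4.48, -4.26 and -3.44 in PBS and -5.30, -2.16 and -4.20 in Anakinra, a change of 0.17 ± 0.84 (limma adjusted p = 0.961). Its interval, -1.96 to 2.31, covers changes as large as several fold in either direction, so the data do not say whether Lta moved with its neighbour Tnf.

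The other ligands did not pass the test. Eda, ectodysplasin, had the largest positive change of all members at 0.68 ± 0.20 (SE; 3 arrays a group; limma adjusted p = 0.195), from -5.52 to -5.24 in PBS and from -5.05 to -4.36 in Anakinra. Every Anakinra array lay above every PBS array, though the Eda probe was dim and not above background on Anakinra 3. Tnfsf9, the ligand of Tnfrsf9, was at 0.09 ± 0.12, with an interval of -0.22 to 0.40, a narrow one. Tnfsf15, the ligand of Tnfrsf25, was at 0.30 ± 0.33 and Tnfsf18, the ligand of Tnfrsf18, at 0.25 ± 0.38. Tnfsf11, which drives osteoclast formation through Tnfrsf11a, was at -0.47 ± 0.63, and Tnfsfm13, a transcript that joins Tnfsf12 and Tnfsf13, at -0.14 ± 0.70.

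Fasl, Cd70 and Tnfsf13b show how little the dimmest ligands can tell. Fasl, which kills cells through Fas and whose probe had the lowest mean signal among those tested, stood at -5.68, -5.74 and -5.16 in PBS and at -7.14, -3.31 and -5.96 in Anakinra. Anakinra 1 was the lowest of the 6 arrays and Anakinra 2 the highest, and the change was 0.05 ± 0.996 (SE; 3 arrays a group; limma adjusted p = 0.992). Cd70, the ligand of Cd27, was at 0.09 ± 1.06 and Tnfsf13b, the B cell survival factor BAFF, at 0.12 ± 0.92, with the same order of the Anakinra arrays in both. Over the 12 tested ligands, 1 was called lower, 8 changes were positive and 4 negative, and the median change was 0.09. Over all 16494 tested genes, 0.8% were called lower and 8622 had a positive change. The signs of dim ligands hung on Anakinra 2: without it Fasl was at -1.03, Cd70 at -0.96 and Lta at -0.69, while Eda stayed positive at 0.49.

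Among death-domain receptors, Fas was 1.93-fold lower in Anakinra. Its processed signal was 424, 579 and 618 on PBS arrays 1 to 3 and 308, 301 and 308 on the Anakinra arrays. The Anakinra arrays were nearly alike, and all lay below the lowest PBS array, PBS 1. As log2 levels, Fas was at -1.02, -0.77 and -0.70 in PBS and at -1.70, -1.85 and -1.79 in Anakinra, a change of -0.95 ± 0.11 (SE; 3 arrays a group; limma adjusted p = 0.0243) with a 95% interval of -1.22 to -0.68. This probe, with 10 spots, lies at chr19:34393409-34393468 in mm8.

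The Fas call was close to the threshold. The change was -0.91 without Anakinra 2 (limma adjusted p = 0.0537), and leaving out any other array also ended the call, with limma adjusted p-values from 0.0736 without Anakinra 1 to 0.202 without PBS 2. Within slide 1 the change was -0.96 and within slide 2 it was -0.79, and with slide as a block it was -0.88 (limma adjusted p = 0.0551). A second Fas probe on 1 spot, at chr19:34375240-34375299 in mm8, read -3.34, -3.38 and -3.19 in PBS and -4.26, -3.27 and -4.45 in Anakinra, a change of -0.69 ± 0.32. On that dimmer probe Anakinra 1 and Anakinra 3 lay below all PBS arrays, and Anakinra 2 lay among them. Taking the mean of both probes gave -0.82 (limma adjusted p = 0.108).

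The receptors for TNF itself did not pass. Tnfrsf1a, the main TNF receptor of most cells, was at 2.05, 1.89 and 1.90 in PBS and at 1.91, 2.12 and 1.72 in Anakinra. The groups were interleaved, and the change was -0.03 ± 0.12 (SE; 3 arrays a group; limma adjusted p = 0.950; 95% interval -0.34 to 0.28). Tnfrsf1b, the TRAF-binding TNF receptor, was at -0.13 ± 0.15 with an interval of -0.50 to 0.23. A second Tnfrsf1b probe was well above background on all 3 PBS arrays and on 0 of 3 Anakinra arrays; its mean log2 level in PBS, -5.92, was below the lowest level that counted as above background on the Anakinra arrays, a mean of -5.40, so no fold is given. On the Tnfrsf1a probe and the Tnfrsf1b probe used, the intervals leave room for changes of less than 1.5-fold only, where Tnf itself changed 6.20-fold. The second Tnfrsf1b probe sets no such bound. The mean of both Tnfrsf1b probes, -0.52 (limma adjusted p = 0.201), takes in Anakinra values of that second probe that were not well above background. No conclusion is drawn from it.

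The other death-domain receptors also overlapped between groups. Tnfrsf10b, the receptor for the death ligand TRAIL, was at -0.10 ± 0.08, and its interval of -0.31 to 0.10 was among the narrowest of the family. Tnfrsf21 was at 0.11 ± 0.11, Ngfr, the low-affinity neurotrophin receptor, at 0.19 ± 0.13, and Tnfrsf25 at -0.25 ± 0.33. Over the 6 tested death-domain receptors, 1 was called lower, 4 changes were negative and 2 positive. Over all 16494 tested genes, 0.8% were called lower and 7872 had a negative change. Ngfr had a second, dimmer probe at -0.71 ± 0.72, of the opposite sign to the probe used.

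**Figure D2:**
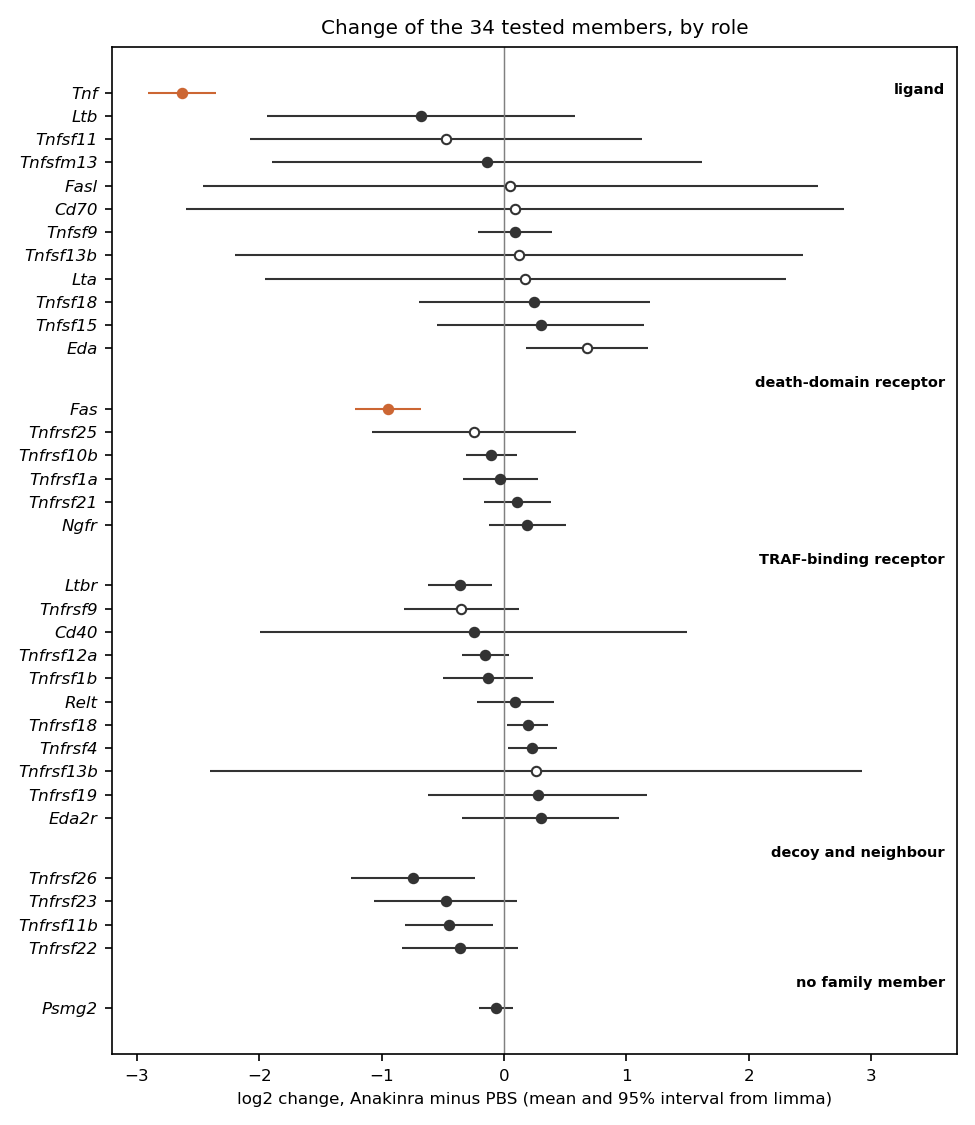
Log2 change, Anakinra minus PBS, with its 95% interval from limma, for the 34 tested members grouped by role; orange marks the 2 that passed, and open circles mark the 9 whose probe was not above background on all 6 arrays. Only Tnf (-2.63) and Fas (-0.95) passed, and the widest intervals belong to dim members such as Cd70 and Tnfrsf13b.

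Of the 11 tested TRAF-binding receptors, 0 passed the limma test and 3 had an unadjusted p under 0.05, 1 lower (Ltbr) and 2 higher. Of all 16494 tested genes, 16.1% had an unadjusted limma p under 0.05, 1255 lower and 1398 higher. Tnfrsf12a, the receptor of the ligand Tnfsf12 and the member whose probe was brightest, was at 5.43, 5.39 and 5.30 in PBS and at 5.31, 5.21 and 5.13 in Anakinra. The Anakinra arrays tended lower but overlapped PBS, and the change was -0.15 ± 0.08 (SE; 3 arrays a group; limma adjusted p = 0.414). Ltbr, the lymphotoxin beta receptor, ran from 1.63 to 1.86 in PBS and from 1.28 to 1.55 in Anakinra. Its groups did not overlap, and the change of -0.36 ± 0.10 (limma adjusted p = 0.195) was -0.33 within slide 1 and -0.45 within slide 2.

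Tnfrsf4 (OX40) and Tnfrsf18 (GITR), receptors best known as costimulators of T cells, are neighbours on chromosome 4, with probes spanning 12.3 kb in mm8. Both were well above background on all 6 arrays. Tnfrsf18 ran from 1.84 to 1.97 in PBS and from 2.08 to 2.17 in Anakinra, a change of 0.19 ± 0.07 (limma adjusted p = 0.256). Tnfrsf4 ran from -1.52 to -1.35 in PBS and from -1.28 to -1.13 in Anakinra, a change of 0.23 ± 0.08 (limma adjusted p = 0.254). Neither pair of groups overlapped, neither change passed, and with median scaling, which moves the median of all genes to -0.31, the changes turned to -0.13 for Tnfrsf18 and -0.09 for Tnfrsf4, still above that median. Their levels stood beside T cell genes Cd3d, Cd3e and Cd3g that were not above background on all arrays of either group.

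The remaining TRAF-binding receptors gave wide or small differences. Tnfrsf9 was at -0.35 ± 0.19, Cd40 at -0.25 ± 0.69, Relt at 0.09 ± 0.12, Tnfrsf13b at 0.26 ± 1.05, Tnfrsf19 at 0.27 ± 0.35 and Eda2r, a receptor for an Eda splice form, at 0.30 ± 0.25. Cd40, which relays help from T cells, shows the effect of a single array: the PBS arrays read -3.84, -4.01 and -3.54 and the Anakinra arrays -5.18, -2.54 and -4.41. Anakinra 2 was the highest of the 6 and the other 2 Anakinra arrays were the lowest, so that the change was -0.999 without Anakinra 2 (limma adjusted p = 0.168).

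The 3 decoys and their neighbour Tnfrsf26 all had negative changes, with a median of -0.46, and 0 of these 4 genes passed by limma. Tnfrsf11b, osteoprotegerin, the soluble decoy for Tnfsf11, ran from -1.97 to -1.53 in PBS and from -2.36 to -2.06 in Anakinra without overlap, a change of -0.45 ± 0.14 (SE; 3 arrays a group; limma adjusted p = 0.225). Tnfrsf22 and Tnfrsf23, which bind TRAIL in the mouse, lie with Tnfrsf26 in a stretch of 60.5 kb on chromosome 7 (143417475 to 143477973 in mm8). Tnfrsf26 ran from -1.42 to -0.98 in PBS and from -2.23 to -1.64 in Anakinra, a change of -0.75 ± 0.20 (limma adjusted p = 0.168). Tnfrsf23 was at -0.48 ± 0.23 and Tnfrsf22 at -0.36 ± 0.19, and in both the array Anakinra 1 lay among the PBS arrays while Anakinra 2 and Anakinra 3 lay below all of them. Anakinra 2 and Anakinra 3 share slide 2 with PBS 1. The sign stayed negative for these 4 genes under every alternative run, within each slide and without each array. That is not particular to them: 14 of the 34 tested members kept their sign under every alternative, Psmg2 included. The alternatives also reuse the same 6 arrays. At an unadjusted limma p under 0.05, Tnfrsf26 and Tnfrsf11b were among the 5 lower members, where 1255 of all 16494 tested genes were lower. Psmg2, the gene outside the family, changed by -0.07 ± 0.06.

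The family can also be read by ligand and receptor. Tnfrsf12a was bright on every array, while the 1 probe of its ligand Tnfsf12 was above background on 0 of 6. The probe of Tnfsfm13, the transcript that joins Tnfsf12 and Tnfsf13, was above background on all 6. Tnfrsf10b and the TRAIL decoys Tnfrsf22 and Tnfrsf23 were above background on all 6, while TRAIL itself, Tnfsf10, was above it on Anakinra 2 alone. Eda2r was above background on all 6 arrays and Edar on Anakinra 2 alone. Tnfrsf4 was above background on all 6 and its ligand Tnfsf4 on 2. The lymphotoxin pair was measured on both sides, with Ltb and Ltbr above background on all 6.

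**Figure D3:**
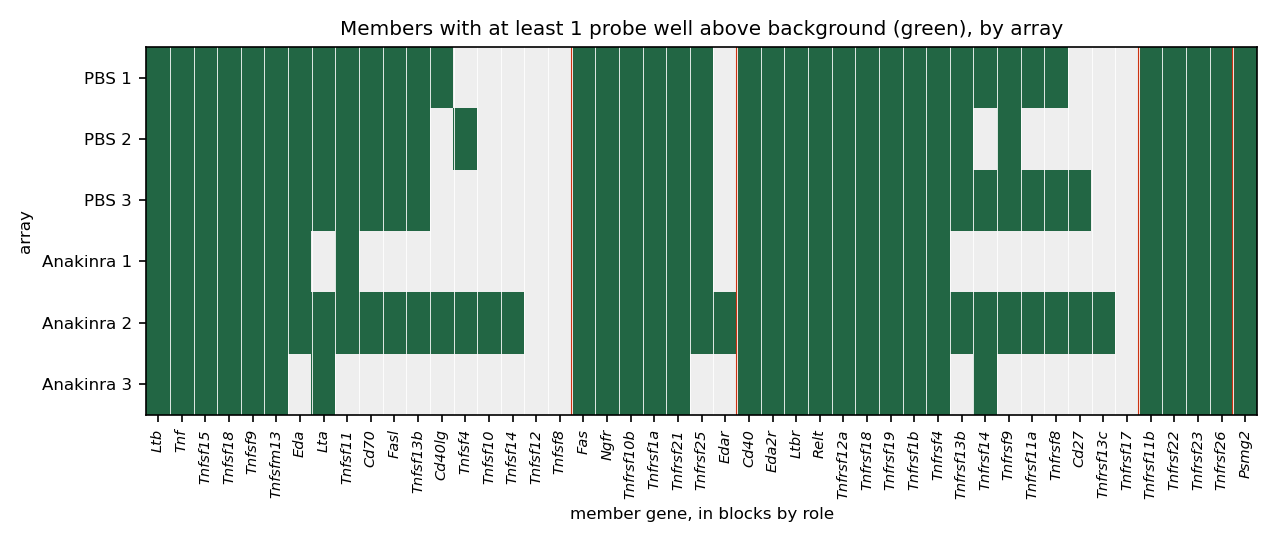
Array by gene map of the 47 members, in blocks by role (ligands, death-domain receptors, TRAF-binding receptors, decoys and neighbour, Psmg2); green means that at least 1 probe of the gene was well above background on that array. The 25 members that were green on all 6 arrays fill the left of each block, and in the others the row of Anakinra 2 is green far more often than those of Anakinra 1 and Anakinra 3.

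The 13 members not tested were Cd27, Cd40lg, Edar, Tnfrsf8, Tnfrsf11a, Tnfrsf13c, Tnfrsf14, Tnfrsf17, Tnfsf4, Tnfsf8, Tnfsf10, Tnfsf12 and Tnfsf14. Most are known from lymphocytes, among them the B cell receptors Tnfrsf13c and Tnfrsf17 and the T cell ligand Cd40lg. For 10 of the 13 a probe was well above background on Anakinra 2, for 4 of them (Edar, Tnfrsf13c, Tnfsf10 and Tnfsf14) on that array alone, and for 3 (Tnfrsf17, Tnfsf12 and Tnfsf8) on no array. Just outside the threshold, Tnfrsf14 was above background on PBS 1, PBS 3, Anakinra 2 and Anakinra 3, at -5.22, -6.45 and -4.98 in PBS and -7.72, -2.68 and -4.68 in Anakinra on its brighter probe. Just inside it, Tnfrsf9 was above background on all 3 PBS arrays and 1 Anakinra array, at -4.98, -4.99 and -5.46 in PBS and -5.56, -5.24 and -5.67 in Anakinra. A member that was not above background is not detectable here, which does not show that it is absent.

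The 34 tested members split by brightness. Of these, 25 were above background on all 6 arrays, 15 with a negative and 10 with a positive change. The other 9 (Tnfsf11, Tnfrsf9, Tnfrsf25, Fasl, Cd70, Tnfsf13b, Lta, Tnfrsf13b and Eda) entered through the PBS arrays alone. Anakinra 2 was the highest of the 6 arrays for 8 of these 9 and for 9 of the 13 members not tested, but for 10 of the 25. The same held over all tested genes, at 88.3% of those not above background on all 6 arrays and 27.0% of those that were. The median SD between arrays of the 9 was 0.32 in PBS and 1.59 in Anakinra, against 0.12 and 0.19 for the 25. Leaving out Anakinra 2 moved the median change of the 34 members from -0.05 to -0.33, while the median of all genes became -0.06. Without that array 28 members were negative, 82.4% against 59.2% of all genes. With all arrays these shares were 52.9% and 47.7%. The 9 entered through their PBS signal, so a negative sign without the array that was highest for 8 of them is in part built in. No conclusion on the family is drawn from this count.

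**Figure D4:**
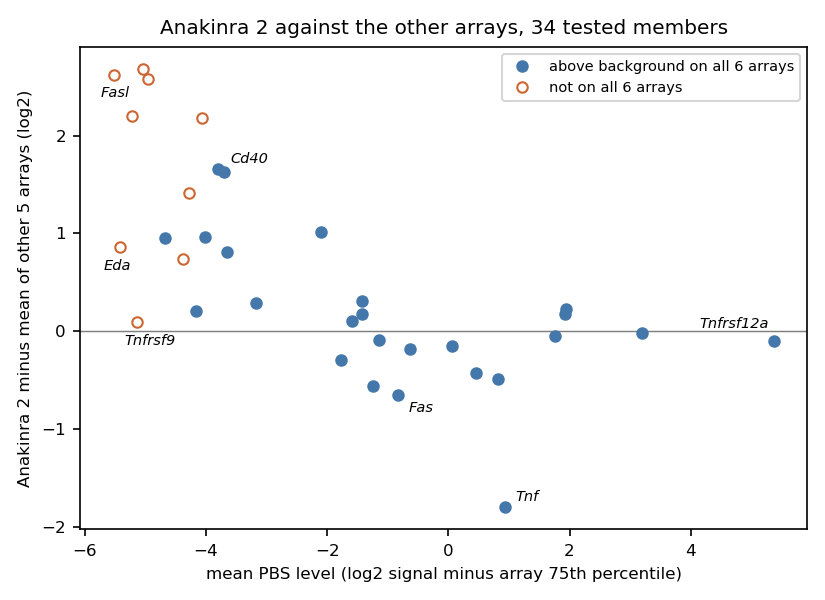
For the 34 tested members, the log2 level on Anakinra 2 minus the mean of the other 5 arrays, against the mean PBS level (log2 signal minus the array's 75th percentile); filled points were above background on all 6 arrays, open points were not. Fasl lies at 2.63, while Fas (-0.66) and Tnf (-1.80) lie below 0 and Tnfrsf12a (-0.10) is close to it.

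Downstream of the receptors, a list of 46 genes of TNF receptor signalling was read, of which 45 were tested. By limma 3 were lower (0.8% of all genes were), 0 were higher and 42 did not pass, and the median log2 change was -0.08 against 0.01 for all genes. At an unadjusted limma p under 0.05, 14 of the 45 were lower and 2 higher. Of all 16494 tested genes, 1255 were lower and 1398 higher at that level. Rel, an NF-kB subunit, was not above background on all arrays of either group. Ikbke, a kinase that acts on NF-kB and interferon signalling, fell from 0.67, 0.57 and 0.52 in PBS to -0.75, -0.72 and -0.68 in Anakinra, a change of -1.30 ± 0.07 (SE; 3 arrays a group; limma adjusted p = 0.00351). Nfkbia, the inhibitor IkB alpha and itself a target of NF-kB, fell from 5.81, 5.63 and 5.59 to 4.46, 4.495 and 4.38, a change of -1.23 ± 0.08 (limma adjusted p = 0.00739). In both, the arrays of each group lay close together and the groups were far apart.

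Relb, the subunit of the alternative NF-kB pathway that Ltbr and Cd40 feed, fell from 1.17, 0.99 and 0.99 to 0.47, 0.54 and 0.53, a change of -0.54 ± 0.08 (SE; 3 arrays a group; limma adjusted p = 0.0451). Of 17 alternatives with a test, Relb passed in 3, Nfkbia in 12 and Ikbke in 14. The 6 TRAF adaptors, Tradd, Fadd and the kinase Ripk1, which bind the receptors or each other at the membrane, were among the 42 that did not pass. The groups did not overlap for 23 of the 45 genes, lower in 18 of them. Of all 16494 tested genes, 26.2% did not overlap, 2270 genes lower and 2056 higher.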

How the data were processed

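Total RNA of 6 cultures, 3 per group, was read on 6 one-colour arrays; groups come from the treatment labels. Per the file headers, the authors read the scans with Agilent Feature Extraction 9.5.3.1 and deposited a processed intensity for each spot, background-subtracted within the array and not scaled between arrays, with flags for outlier spots and for signal well above background. A value table that the authors deposited on a log2 scale equals the log2 of that intensity plus 1 constant per array, to within 0.001, and served as an alternative.

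The log2 processed intensity minus the 75th percentile of each array was used. Control and outlier spots were left out and the spots of a probe averaged. A probe entered if it passed the background flag on every array of either group, with at least 2 values per group, and the brightest such probe stood for a gene. Names were updated through RefSeq GRCm38.p6 (accession 23374 probes, symbol 6733, synonym 2919; 8148 kept the file's name). Probes are placed as in the array's design file, mm8. All 16494 genes were fitted together in limma 3.58.1 (lmFit, eBayes; R 4.3.3), two-sided, with Benjamini-Hochberg adjustment; the script was tested on simulated data. Full values were given for members that passed or changed by at least 1 on the log2 scale and for the brightest and dimmest probe tested; the values by array of other members, and the genes named from the signalling list that did not pass, were chosen after their values were seen. The same replicate numbers in both groups carried no sign of pairing (correlations of deviations 0.41, -0.49 and -0.21). The members, the lists, the motifs and the alternatives were chosen with earlier results of these data known. Whether the 3 cultures of a group had separate mice or isolations behind them is not given in the labels. The p-values then cover the spread between these samples alone, which may be technical, and 3 arrays per group limit the precision. The summed level of the T and B cell marker list is not reported here.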

Additional observations from a re-analysis of the deposited data

How the results depend on the processing

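The 2 members called lower, Tnf and Fas, were also called with normexp background correction, with the 75th percentile taken over probes above background on all arrays, with the authors' deposited table, with only probes above background on all 6 arrays, and with array weights. The count was 1 (Tnf) with median scaling, with no filter on dim probes, with the mean of a gene's probes and with slide as a block, and 3 with quantile scaling, which added Ltb. It was 0 with a replicate block (5 members had an unadjusted limma p under 0.05 and were lower). Leaving out 1 array gave 0 to 1, and 0 only without PBS 2, where 4 members were lower at an unadjusted limma p under 0.05. No member was called higher under any of these settings, and the unadjusted count there was 0 to 3. Over all genes the 292 calls became 57 with median scaling, 36 with no filter, 578 with probes above background on all 6 arrays, 53 with slide as a block, 0 with a replicate block (747 lower and 1021 higher at an unadjusted limma p under 0.05), and 8 to 232 without 1 array; fewer samples or more genes tested lie behind some of these counts, and otherwise the cause was not tested. With the replicate block Tnf was at -2.63 (limma adjusted p = 0.112) and Fas at -0.95 (limma adjusted p = 0.241). Tnf stayed between -2.95 and -2.39 and passed in 15 of 17 alternatives with a test, and Fas stayed between -1.27 and -0.79 and passed in 6. Signal over background is the main limit for the 9 tested members that were not above it on all 6 arrays and for the 13 that were not tested.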
